A study of Saccharomyces cerevisiae with 16 samples.

Results

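The transcript responses of the 2 inhibitor-sensitized HRR25 strains of Saccharomyces cerevisiae were compared feature by feature: hrr25is with the compound CMK against hrr25as with the compound 3MBPP1. Each response was the log2 ratio of the mean normalised reads in condition B to those in condition A of the deposited table for that strain. Members were the identifiers listed in both tables with a mean of at least 20 normalised reads in each; 6253 identifiers stood in both and 5521 were members, of 6885 features in any table of the series. The remaining 732 fell below 20 in a table: the lowest member and the highest identifier left out had means of 20.1 and 19.96 in hrr25as and of 20.1 and 19.999 in hrr25is. In all, 16 samples formed 8 groups of 2 libraries, and since the labels do not say whether the libraries of a group were separate cultures, the spread behind each p may be technical. By the labels, all strains were his3Δ leu2Δ ura3Δ with chromosomal HRR25 replaced by kanMX4. WT cells carried HRR25 on the URA3 plasmid pRS316, hrr25as cells carried hrr25-I82G on the LEU2 plasmid pRS315, and hrr25is cells carried hrr25-I82G,I23C on pRS315. The kinase was therefore labelled as supplied from a plasmid in every group. Cells in YPD at 30°C were treated for 1 hour: hrr25as with DMSO or 3MBPP1, hrr25is with DMSO or CMK, and WT with each of these pairs. Total RNA was extracted with hot phenol, depleted of ribosomal RNA and sequenced as single-end reads of 100 bases. The table headers do not say which of conditions A and B held the compound, so every value below is condition B relative to condition A.

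Hrr25 is the budding yeast member of the casein kinase 1 family closest to the mammalian delta and epsilon forms, with known roles in ribosome maturation, meiosis, DNA repair and membrane traffic. An analogue-sensitive kinase, here hrr25as, has an enlarged ATP pocket that admits a bulky inhibitor. In an irreversibly inhibited form an added cysteine in the pocket can bond to a reactive inhibitor. 3MBPP1 is an inhibitor of the first kind, and the labels give CMK by abbreviation only. Because each strain met a different compound and stands in a table of its own, effects of strain, compound and anything else that differs between the tables cannot be told apart in the difference between the responses.

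One library decided much of what the hrr25is table showed. The library with the larger size factor in its condition B held the same reads as a library of condition B of the WT CMK table at 6760 of 6760 features, whereas the most similar other pair of the 120 pairs of libraries agreed at 1.79% of features. Its plasmid markers were those of WT: it had 1629 RPM of URA3 (reads scaled to equal library totals), against 2.48 to 5.23 in the other 3 hrr25is libraries and 1541 to 1842 in the WT CMK table. It had a LEU2 level of 0.440 RPM, against 75.4 to 85.8 in those 3 libraries and 71.5 to 99.4 in the hrr25as libraries. HRR25 stood at 758 RPM in it, at 84.1 to 144 in the other hrr25is libraries, at 123 to 166 in hrr25as and at 691 to 864 in the WT CMK table. Results are therefore given without this library in hrr25is, where it leaves 1 library in condition B, and with it where the value turns on it. The WT 3MBPP1 libraries also went against part of their labels: they held 38.6 to 54.4 RPM of LEU2, deleted per the labels. They held 45.6 to 51.2 LYS2 and 271 to 459 MET17 RPM as well, genes that the genotype given above does not name. The libraries of both CMK tables had at most 1.36 LYS2 and 1.25 MET17. The WT 3MBPP1 libraries held 91.0 to 120 RPM of URA3 and 117 to 166 of HRR25, below the WT CMK levels given above. They are called the WT 3MBPP1 libraries by label. HIS3, deleted per the labels, had 15.5 to 41.6 RPM in all 16 libraries. Depth was 4275991 to 6592340 counted reads per library in hrr25as, 16815301 to 34122412 in hrr25is, and 9568820 to 34122412 in the WT tables. Small nuclear and nucleolar RNAs took 5.14% to 6.39% of reads in hrr25as, 14.1% to 18.1% in hrr25is, 31.4% to 38.2% in the WT 3MBPP1 table and 9.14% to 14.1% in the WT CMK table. What part this share and the strain markers had in the results below was not tested.

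The genes whose response both strains shared included phosphate, purine and histidine genes with known activator sites, so 3 upstream windows are shown. Each is the 300 bases from 400 to 101 before the start codon on the coding strand, read from the R64 assembly of RefSeq (sacCer3), 5′ to 3′. Capitals mark CACGTG, the core bound by Pho4 and Cbf1, in the PHO5 window, and TGACTC, the core bound by Gcn4 and Bas1, in the others.
PHO5, chrII:431052-431351, minus strand: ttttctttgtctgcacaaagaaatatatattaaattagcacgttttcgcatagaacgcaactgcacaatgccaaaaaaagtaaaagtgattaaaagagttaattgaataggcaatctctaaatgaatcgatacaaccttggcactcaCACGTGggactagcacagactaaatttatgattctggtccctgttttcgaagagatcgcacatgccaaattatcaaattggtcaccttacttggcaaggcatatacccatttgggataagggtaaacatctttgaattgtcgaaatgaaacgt
ADE17, chrXIII:509381-509680, minus strand: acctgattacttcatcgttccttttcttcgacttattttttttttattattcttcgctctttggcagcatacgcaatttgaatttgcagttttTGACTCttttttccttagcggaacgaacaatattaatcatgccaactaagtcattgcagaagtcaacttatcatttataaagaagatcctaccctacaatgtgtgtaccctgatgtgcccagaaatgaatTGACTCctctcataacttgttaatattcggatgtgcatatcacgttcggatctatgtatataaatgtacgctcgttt
HIS4, chrIII:68434-68733, minus strand: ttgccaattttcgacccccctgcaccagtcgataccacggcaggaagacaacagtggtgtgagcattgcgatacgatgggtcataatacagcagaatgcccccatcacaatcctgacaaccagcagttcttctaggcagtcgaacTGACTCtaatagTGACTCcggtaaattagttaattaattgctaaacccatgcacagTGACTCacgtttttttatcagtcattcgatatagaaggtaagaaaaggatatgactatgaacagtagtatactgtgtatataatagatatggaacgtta
Searched on both strands, TGACTC was in 471 of the 5345 member windows (8.81%) and in 7 of the 16 windows of genes called lower in both strains (43.8%), among them 3 copies each in HIS4 and ILV5, 2 in ADE17, and 1 each in ILV3, MET6 and RPS13. CACGTG was in 250 windows (4.68%) and in 3 of those 16 (18.8%), in PHO5, PHM6 and SAM2. Of the 8 windows of genes called higher in both strains, CACGTG was in 1 (12.5%), that of YHR033W, and TGACTC in 0. Of the 326 windows of genes called lower in hrr25as, TGACTC was in 50 (15.3%) and CACGTG in 16 (4.91%). The stress element core AGGGG, bound by Msn2 and Msn4, was in 1265 windows (23.7%). It was in 2 of the 16 windows of genes called lower in both strains (12.5%) and in 56 of the 115 windows of genes called higher in hrr25as (48.7%). These matches describe letters in the windows and do not show binding.

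Across the 5521 members the responses of hrr25as and hrr25is agreed in part. As deposited, Pearson's r was 0.530 and Spearman's rho 0.457, and 3577 members (64.8%) had the same sign in both. Without the shared library in hrr25is, r was 0.657 and rho 0.550, and 3761 members (68.1%) had the same sign. The points are features of the same libraries, are not independent replicates, and include gene families that move together: without ribosomal protein genes (5383 features) r was 0.463 as deposited and 0.609 without the shared library. The response was wider in hrr25as, with an SD over members of 0.57 against 0.33 in hrr25is as deposited and 0.49 without the shared library. The libraries of a condition also differed more from each other in the shallower hrr25as table, with an SD of their log2 difference of 0.495 and 0.509, against 0.278 in condition A of hrr25is. Taken singly, the other condition B library of hrr25is gave an r of 0.657 with the hrr25as response and the shared library gave 0.115. The difference of the responses, hrr25is minus hrr25as, was at least 1 in size on the log2 scale for 243 members as deposited (101 positive, 142 negative), and for 180 (49 positive, 131 negative) without the shared library.

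**Figure D1:**
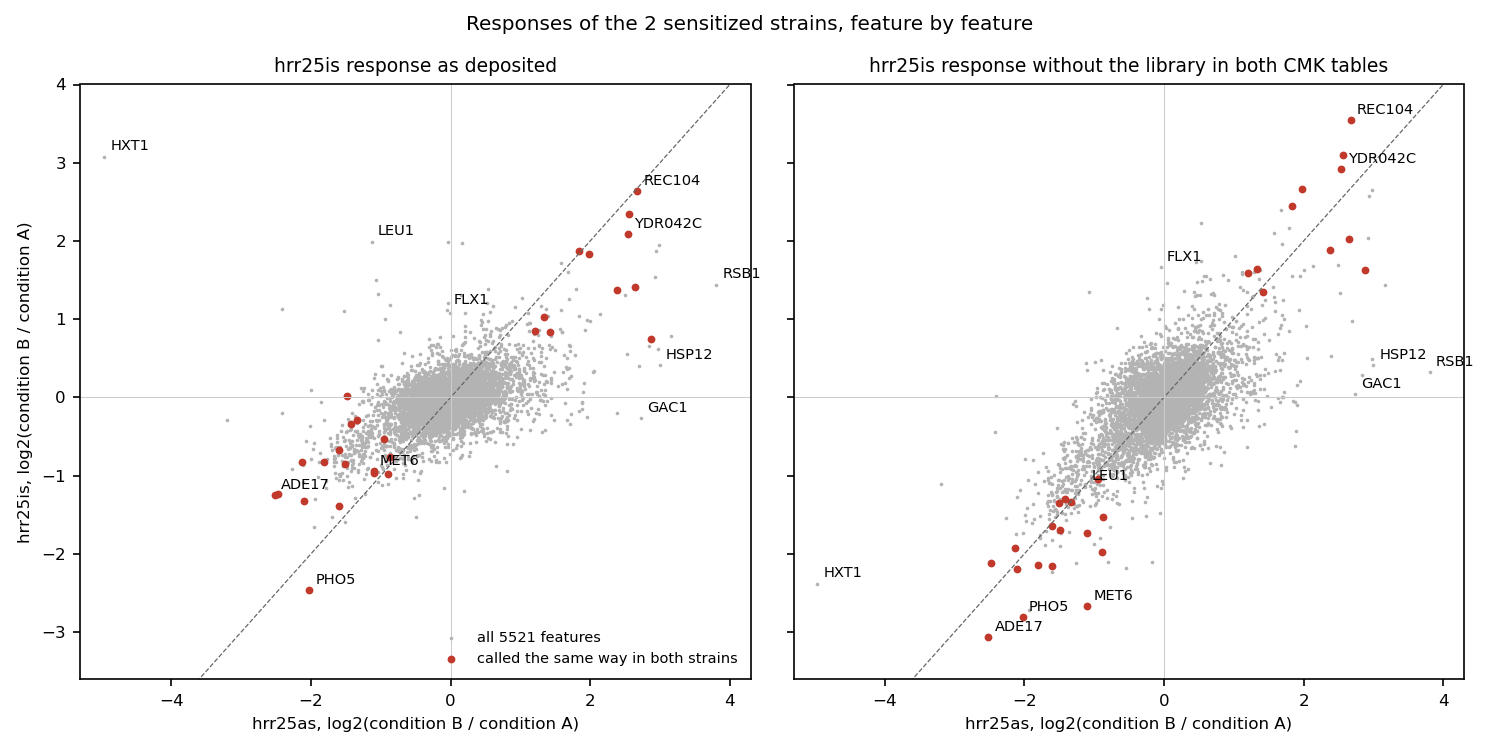
Log2(condition B / condition A) of 5521 features in hrr25as (x axis) against hrr25is (y axis), as deposited (left) and without the library that also stands in the WT CMK table (right); red points are the 28 features called the same way in both strains and the dashed line marks equal responses. The red points lie near the dashed line in the right panel (all-feature r of 0.657), and several lie nearer the horizontal line in the left panel (r of 0.530).

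A single limma voom model over the recovered reads of all 15 distinct libraries tested the responses at 5516 members, since 5 members are not listed in the WT 3MBPP1 table. Calls are Benjamini-Hochberg adjusted p under 0.05 over the 5516. In hrr25as, 129 features were called higher (2.34% of those tested) and 327 lower (5.93%; 8.27% in either direction). In hrr25is without the shared library, 21 were called higher (0.381%) and 18 lower (0.326%; 0.707% together). The strains' own lists overlapped: 11 features (0.199%) were called higher in both, which is 8.53% of the hrr25as list and 52.4% of the hrr25is list. Another 17 (0.308%) were called lower in both, 5.20% and 94.4% of the respective lists, and 0 were called in opposite directions. The members called lower in hrr25as had the same sign in hrr25is in 300 of 327 cases, with median log2 responses of -1.23 in hrr25as, -0.81 in hrr25is, -0.77 in the WT 3MBPP1 table and -0.28 in the WT CMK table. Those called higher had the same sign in 114 of 129, with medians of 1.26, 0.47, 0.38 and 0.07 in that order. Of the 28 features called alike (0.508%), 25 were called in neither WT table. By size, 16 of the 28 stayed under 0.5 in both WT tables, 5 of the 11 higher and 11 of the 17 lower. In WT with 3MBPP1, 61 features were called higher (1.11%) and 156 lower (2.83%, 3.93% together). In WT with CMK 1 was called (0.0181%), higher, so the lack of a call there says little. With the shared library kept in hrr25is, 1 of the 28 calls was kept, that of PHO5. Without either condition A library of hrr25is, 12 and 8 were called alike, and without either condition B library of WT CMK the numbers were 138 and 133, with all 28 among them.

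The most reduced shared feature was ADE17, which encodes the enzyme of the last steps of purine synthesis (YMR120C, chromosome XIII, 507502 to 509280). In hrr25as its normalised reads were 2854 and 2787 in condition A and 375 and 611 in condition B. In hrr25is they were 5415 and 7067 in condition A, 747 in the library of condition B that was its own and 4497 in the shared one. Condition B lay below condition A in hrr25as and in hrr25is's own library. The shared library also lay below, by the smallest margin, but it carries the WT markers and does not test the hrr25is response. The fitted log2 change was -2.54 ± 0.29 (SE; limma adjusted p = 0.000714) in hrr25as and -3.05 ± 0.36 (adjusted p = 0.00152) in hrr25is. In the WT tables ADE17 had 599.9 and 659.7 against 706 and 817 reads with 3MBPP1, and 4231 and 2812 against 2527 and 4497 with CMK, with fitted values of 0.27 ± 0.27 and -0.12 ± 0.31. With the shared library kept the hrr25is value was -1.84 (adjusted p = 0.416). ADE17 was 1 of the 4 features, with PHO5, YDR042C and YHR033W, called alike in all 14 fits that left out 1 library. All 14 fits kept hrr25is's own condition B library, so they do not test the hrr25is calls against its loss.

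Purine, amino acid and one-carbon genes made up much of the shared lower set. SHM2, the cytosolic serine hydroxymethyltransferase that feeds one-carbon units to purine and methionine synthesis, had 3783 and 4898 reads in condition A and 1059.6 and 1421 in condition B of hrr25as. In hrr25is it had 9920.1 and 10745 in condition A, 2339 in its own condition B library and 9276 in the shared one. The fitted change was -1.80 ± 0.27 (limma adjusted p = 0.00181) in hrr25as and -2.14 ± 0.36 (adjusted p = 0.0151) in hrr25is, with -0.14 and -0.29 in the WT tables. HIS4, a histidine synthesis enzyme, had 9350.4 and 6354 against 3012 and 2170.1 reads in hrr25as, and 9384 and 11005 against 2299.8 and, in the shared library, 5503 in hrr25is. In both genes the condition B libraries of hrr25as and hrr25is's own lay below condition A. The shared library did so by the smallest margin, but it does not test the hrr25is response. The HIS4 fitted changes were -1.60 ± 0.27 (limma adjusted p = 0.00341) and -2.14 ± 0.33 (adjusted p = 0.00814), against -0.45 and -0.46 in WT. SHM2 and HIS4 lost the shared call when either condition A library of hrr25is was left out, and HIS4 also without the smaller condition A library of hrr25as.

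Of the branched-chain pathway, ILV3 and ILV5, its dehydratase and reductoisomerase, were called lower in both strains. ILV3 had 2992 and 2245 against 971 and 896 reads in hrr25as, and 5495 and 6764 against 1901 and, in the shared library, 10506 in hrr25is. The shared library was thus above every condition A library, and the deposited hrr25is response of ILV3 was 0.02, against a fitted -1.68 ± 0.26 (limma adjusted p = 0.00798) without it. ILV5 changed by -1.34 ± 0.18 (limma adjusted p = 0.00117) in hrr25as and -1.33 ± 0.26 (adjusted p = 0.0335) in hrr25is, and kept the shared call in 4 of the 14 fits that left out 1 library. MET6, the methionine synthase, had the steeper value in hrr25is: it changed by -1.10 ± 0.25 in hrr25as (limma adjusted p = 0.0161) and by -2.66 ± 0.28 in hrr25is (adjusted p = 0.000682). Its difference was -1.56 ± 0.37 and did not pass (limma adjusted p = 0.594). The paralogous S-adenosylmethionine synthetases SAM1 and SAM2, which can share reads, were lower in both strains, SAM1 by -1.61 ± 0.24 and -1.62 ± 0.32 and SAM2 by -0.89 ± 0.24 and -1.94 ± 0.30 (limma adjusted p from 0.00165 to 0.0401). The shared call was kept in 8 of the 14 fits that left out 1 library for SAM1 and in 5 for SAM2.

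**Figure D2:**
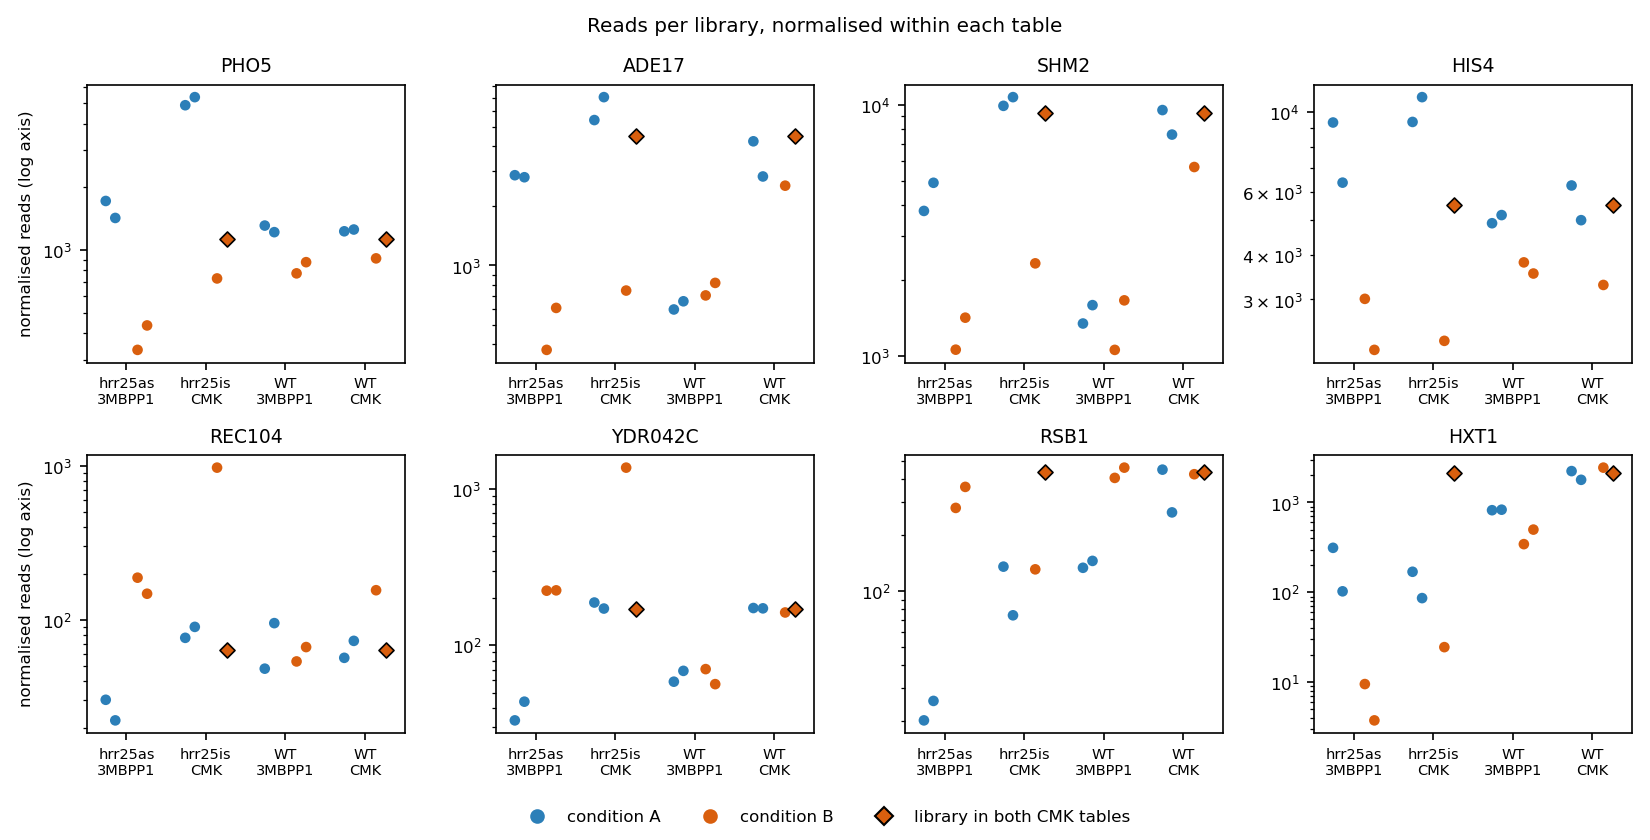
Normalised reads (log axis) in each library of the 4 tables for 6 genes called alike in both sensitized strains and for RSB1 and HXT1, which were not, with conditions A and B in different colours and the library present in both CMK tables drawn as a diamond. ADE17 in hrr25as drops from 2787 and above in condition A to 611 and below in condition B. The hrr25is diamond (4497) lies near condition A while the other condition B library (747) does not. The CMK tables appear to share a scale, since the shared library has a size factor of 1.73 in both. Other levels are to be compared within a table.

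The medians of these pathways were below 0 in both strains, and fewer members passed the test in hrr25is. Of 15 purine synthesis genes, 10 were called lower in hrr25as and 2 in hrr25is (ADE17 and SHM2), and the median response was -1.10 and -0.92, against -0.13 and -0.22 in the WT 3MBPP1 and CMK tables. Over all members the medians were 0.00, -0.03, 0.03 and -0.05. Of 44 genes that the activator Gcn4 controls in amino acid synthesis, 16 were called lower and 1 higher in hrr25as and 3 lower in hrr25is, with medians of -0.86 and -0.68, and of -0.36 and -0.22 in WT. Of 22 methionine and sulfur genes, 5 were called lower in hrr25as and 3 in hrr25is, with medians of -0.52 and -0.57, and of -0.44 and 0.02 in WT. Before adjustment (limma, p under 0.05), 14 purine, 27 Gcn4 and 8 methionine genes were lower in hrr25as and 11, 17 and 9 in hrr25is, where all features gave 758 lower in hrr25as and 417 in hrr25is. At that level the difference between the strains passed for 0 purine, 0 Gcn4 and 2 methionine genes.

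PHO5 and PHM6 of the phosphate regulon were called lower in both strains. PHO5, the secreted acid phosphatase that phosphate-starved cells make (YBR093C, chromosome II, 429548 to 430951), had 1712 and 1421 reads in condition A and 334 and 436 in condition B of hrr25as. In hrr25is it had 4898 and 5353 in condition A, 731 in its own condition B library and 1132 in the shared one. The fitted changes were -2.02 ± 0.18 (limma adjusted p = 0.000253) and -2.81 ± 0.23 (adjusted p = 8.09e-05). In the WT tables PHO5 had 1307 and 1215 against 773 and 874 reads with 3MBPP1, a change of -0.62 ± 0.18 (limma adjusted p = 0.0805), and 1227 and 1251 against 912 and 1132 with CMK, a change of -0.29 ± 0.18. The mean of the sensitized responses minus the mean of the WT responses was -1.96 ± 0.19 (limma adjusted p = 0.000639). PHO5 kept the shared call in all 14 fits that left out 1 library, each of which kept hrr25is's own condition B library. With the shared library kept in hrr25is its change was -2.49 (adjusted p = 0.000308), but the shared library's 1132 reads lie within the 912 to 1251 of the WT CMK table, where condition A was also below that of hrr25is. The value with that library therefore does not test the hrr25is response. The same holds for the authors' deposited value: PHO5 was 1 of the 2 members, with MF(ALPHA)2, that the authors' deposited table of hrr25is lists at an adjusted p under 0.05 (5.50e-10 and 0.000425; 0.0362% of members lower and 0 higher).

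PHM6, a small gene of the phosphate regulon, had 104 and 115 against 45.7 and 56.6 reads in hrr25as, and 497 and 447 against 142 and, in the shared library, 344 in hrr25is. It changed by -1.09 ± 0.26 (limma adjusted p = 0.0219) and -1.73 ± 0.23 (adjusted p = 0.00317), and the shared call was lost without any 1 of the 4 hrr25as libraries and under total-read scaling. PHO89, the sodium-coupled phosphate transporter, had 1602 and 1695 against 528 and 624 reads in hrr25as, and 7595 and 12260.1 against 3021 and, in the shared library, 3559 in hrr25is. Condition B of PHO89 lay below condition A in hrr25as and in hrr25is's own library. The shared library also lay below, but it carries the WT markers and does not test the hrr25is response. The deposited changes were -1.52 and -1.59, the latter with the shared library included, and -0.38 and -0.08 in the WT tables. PHO3, the phosphatase encoded beside PHO5 that does not depend on phosphate, had 1368 and 1287 against 333 and 391 reads in hrr25as. In hrr25is it had 2742 and 3287 against 1729.9 and 1952, and 1 of these condition B values is that of the shared library. Of the 18 phosphate regulon genes, 5 were called lower in hrr25as and 2 in hrr25is, with medians of -0.63 and -0.69, and of -0.08 and -0.26 in WT.

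Ribosomal protein genes were lower in both sensitized strains but also in WT with 3MBPP1. ASC1, which encodes the yeast RACK1 protein of the small subunit, had 5232 and 4379 against 865 and 869.9 reads in hrr25as, and 13530.0 and 17929.5 against 3631 and, in the shared library, 9684 in hrr25is. In WT it had 5300.3 and 4554 against 1586 and 1537 reads with 3MBPP1, and 9557 and 8694 against 14044 and 9684 with CMK. The groups did not overlap in hrr25as or in WT with 3MBPP1, and hrr25is's own condition B library lay below its condition A. The shared library's 9684 lies within the 8694 to 14044 of the WT CMK table and does not test the hrr25is response. The fitted changes were -2.47 ± 0.19 (limma adjusted p = 7.41e-05) in hrr25as, -2.10 ± 0.27 (adjusted p = 0.00313) in hrr25is, -1.66 ± 0.19 (adjusted p = 0.00287) in WT with 3MBPP1 and 0.39 in WT with CMK. ASC1 holds the small nucleolar RNA gene SNR24 in its intron and may share reads with it. RPS13, a small-subunit protein gene, changed by -2.10 ± 0.24 (limma adjusted p = 0.000714), -2.17 ± 0.35 (adjusted p = 0.0125) and -1.54 ± 0.26 (adjusted p = 0.00702) in the first 3 of these tables. Of 138 ribosomal protein genes, 128 were called lower in hrr25as, 2 in hrr25is (ASC1 and RPS13) and 101 in WT with 3MBPP1, with medians of -1.41, -1.06 and -1.36, and of -0.38 in WT with CMK. The difference hrr25is minus hrr25as was positive for 120 and negative for 18 of them. Of the 138, 7 had a difference at a p under 0.05 before adjustment (limma), all positive. Over all 5516 features it was 287 (5.2%), 158 of them positive. The single responses were lower at that level for 134 in hrr25as and 95 in hrr25is, where all features gave 758 and 417. Many ribosomal protein genes are near-identical pairs that share reads.

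Outside these pathways, GAS3, SUR7, SFG1 and YNL058C were called lower in both strains. GAS3, a cell wall glucanosyltransferase-like protein, had 1032 and 1086 against 568 and 594 reads in hrr25as, and 3008 and 3314 against 1096 and, in the shared library, 2624 in hrr25is, and changed by -0.87 ± 0.16 (limma adjusted p = 0.00610) and -1.53 ± 0.20 (adjusted p = 0.00319). SUR7, an eisosome protein of the plasma membrane, changed by -0.96 ± 0.18 (limma adjusted p = 0.00522) and -1.04 ± 0.20 (adjusted p = 0.0312). SFG1, a transcription regulator of filamentous growth, changed by -1.43 ± 0.25 (limma adjusted p = 0.00398) and -1.30 ± 0.26 (adjusted p = 0.0401), and YNL058C, which has no symbol, by -1.52 ± 0.25 (adjusted p = 0.00280) and -1.34 ± 0.26 (adjusted p = 0.0312). SUR7, SFG1 and YNL058C kept the shared call in 6, 6 and 8 of the 14 fits that left out 1 library. YLR062C, which had no match in the annotation used, is not assigned to a pathway here. It was called lower in both strains but also in WT with 3MBPP1, by -2.04 ± 0.40 (limma adjusted p = 0.0133), and kept the shared call in 3 of those fits. MF(ALPHA)2, an alpha-factor gene expressed in alpha cells, was lower in the deposited means by -1.70 in hrr25as and -1.53 in hrr25is (-1.70 without the shared library), against -0.22 and -0.03 in WT. Its hrr25as libraries overlapped between the conditions, at 2390.3 and 658 against 867 and 74.0 reads. Of the 23 mitotic CLB2 cluster genes, 6 were called lower in hrr25as and 0 in hrr25is (limma). At a p under 0.05 before adjustment 14 and 13 were lower, where all features gave 758 and 417. The medians of the cluster were -0.62 and -0.50, and both WT medians were 0.06. CLB1, a mitotic cyclin gene, changed by -1.27 ± 0.29 (limma adjusted p = 0.017) in hrr25as.

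The largest fitted increase in hrr25is among the shared features was that of REC104. REC104, a meiotic recombination gene (YHR157W, chromosome VIII, 412907 to 413455), had 30.3 and 22.3 reads in condition A and 188 and 148 in condition B of hrr25as. In hrr25is it had 76.5 and 90.1 in condition A, 975 in its own condition B library and 63.7 in the shared one. Condition B was thus higher in both strains and the shared library was not. The fitted changes were 2.66 ± 0.49 (limma adjusted p = 0.00539) and 3.54 ± 0.41 (adjusted p = 0.00129), with -0.21 and 0.41 in WT. With the shared library kept the hrr25is value was 1.41 (adjusted p = 0.789). SNR71, a small nucleolar RNA gene on the same chromosome, had 14.4 and 18.0 against 98.8 and 104 reads in hrr25as and 203 and 301 against 1023 and, in the shared library, 319 in hrr25is. Its changes were 2.61 ± 0.59 (limma adjusted p = 0.0170) and 2.04 ± 0.37 (adjusted p = 0.0237), while WT had -1.89 with 3MBPP1 and 1.49 with CMK. SNR71 lost the shared call without any 1 of the 4 hrr25as libraries and without either condition A library of hrr25is.

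Among protein-coding genes called higher in both strains, ADR1, the activator of many glucose-repressed genes, had 625 and 867 against 1775 and 1671 reads in hrr25as, and 1575 and 1924 against 5270.5 and, in the shared library, 1019 in hrr25is. It changed by 1.22 ± 0.19 (limma adjusted p = 0.00204) and 1.60 ± 0.27 (adjusted p = 0.0151). YHR033W, which has no symbol, had 214 and 215 against 536 and 544 reads in hrr25as and 388 and 477 against 1349 and, in the shared library, 419 in hrr25is. It changed by 1.33 ± 0.20 (limma adjusted p = 0.00165) and 1.65 ± 0.21 (adjusted p = 0.00313). CTR2, the copper transporter of the vacuole, had 232 and 202 against 1259 and 454 reads in hrr25as, changed by 1.81 ± 0.40 (limma adjusted p = 0.0155) and 2.67 ± 0.50 (adjusted p = 0.0311), and kept the shared call in 4 of the 14 fits that left out 1 library. ATG45, YHR069C-A, YNL277W-A and YOR041C completed the shared higher set with fitted changes of 1.38 to 2.85 in hrr25as and 1.35 to 2.44 in hrr25is. They kept the shared call in 11, 12, 6 and 5 of those fits. Of these features, YHR069C-A and YOR041C are not listed among the protein-coding genes of the annotation used. YNL277W-A had 101 and 102 reads in condition A of hrr25is, 313 in its own condition B library and 27.2 in the shared one, so with the shared library kept its hrr25is value turned to -0.35. Of 20 glucose-repressed genes, 3 were called higher in hrr25as and 1, ADR1, in hrr25is, with medians of 0.28 and -0.13.

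A pair of the shared higher features lie just past a small nucleolar RNA gene in the same orientation. YDR042C (chromosome IV, 540601 to 541203) starts 398 bases after SNR47, and YJL047C-A (chromosome X, 349044 to 349178) overlaps SNR60 by 49 bases. USE1 starts 286 bases after SNR82, and was called higher in hrr25is. The 120 bases after SNR47 and SNR82 are shown because they lie between the snoRNA and the gene that was higher. They are printed on the strand of the gene with TCTT, bound by Nab3, and GTAA and GTAG, bound by Nrd1, in capitals.
After SNR47, chrIV:541482-541601, minus strand: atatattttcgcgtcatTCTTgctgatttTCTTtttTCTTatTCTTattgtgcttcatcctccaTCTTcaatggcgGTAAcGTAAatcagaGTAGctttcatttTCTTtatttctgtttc
After SNR82, chrVII:317056-317175, plus strand: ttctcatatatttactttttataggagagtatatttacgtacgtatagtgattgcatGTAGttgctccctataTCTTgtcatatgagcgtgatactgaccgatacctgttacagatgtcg
The first holds 6 TCTT and 3 of the Nrd1 letters, and the second 1 of each. On this strand, TCTT was in 68 of the 76 windows after snoRNA genes (89.5%) and GTAA or GTAG in 52 (68.4%). YDR042C had 33.2 and 43.7 against 223 and 224 reads in hrr25as, and 188 and 172 against 1361 and, in the shared library, 169.6 in hrr25is. In WT it had 58.6 and 68.7 against 70.5 and 56.5 with 3MBPP1, and 173 and 172 against 162 and 169.6 with CMK. The condition B libraries of hrr25as and the own one of hrr25is lay above condition A, and the shared library and the WT ones did not. The changes were 2.51 ± 0.26 (limma adjusted p = 0.000608) and 2.92 ± 0.21 (adjusted p = 2.81e-05). YJL047C-A had 10.1 and 7.71 against 63.8 and 41.5 reads in hrr25as and 91.8 and 117 against 897 and, in the shared library, 165 in hrr25is, and changed by 2.43 ± 0.46 (limma adjusted p = 0.00628) and 3.10 ± 0.31 (adjusted p = 0.000522). USE1, a membrane traffic SNARE, changed by 0.71 ± 0.22 (limma adjusted p = 0.0669) in hrr25as and 1.33 ± 0.20 (adjusted p = 0.00704) in hrr25is. FLX1, the mitochondrial FAD carrier gene 148 bases after SNR68, stood at -0.12 in hrr25as and 1.67 ± 0.28 in hrr25is (limma adjusted p = 0.0151), and the difference did not pass (adjusted p = 0.594). These genes were picked after their values were seen. Over the 27 members that lie downstream of a snoRNA gene in tandem, the medians were -0.08 and -0.03. Of them, 2 were called higher and 4 lower in hrr25as and 4 higher and 0 lower in hrr25is. Over the 5340 protein-coding members tested that have a neighbour, 115 were called higher and 326 lower in hrr25as and 15 higher and 17 lower in hrr25is. Among 67 snoRNA genes themselves, 6 were called higher in hrr25as and 1 in hrr25is, where all 5516 features gave 129 and 21. The snoRNA medians were 0.21 and 0.04, against -0.56 and 0.94 in the WT tables.

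By size alone, 51 members (0.924%) had deposited responses of at least 1 in the same direction in both strains, 26 higher (0.471%) and 25 lower (0.453%). Of these, 13 (0.235%) stayed under 0.5 in size in both WT tables. The 9 that were higher (0.163%) are SNR48, YDR042C, DIN7, SHC1, YHR033W, YHR069C-A, CTR2, IDP2 and ZPS1, and the 4 lower (0.0725%) are PHO89, HIS4, MF(ALPHA)2 and ADE17. DIN7, a mitochondrial DNA-damage nuclease, had deposited log2 responses of 1.29 in hrr25as, 1.16 in hrr25is, 0.30 in WT with 3MBPP1 and -0.14 in WT with CMK. For IDP2, the cytosolic isocitrate dehydrogenase, they were 1.83, 1.04, 0.34 and 0.32, and for ZPS1, a cell wall protein of zinc-limited cells, 1.58, 1.11, -0.17 and 0.26. SHC1, an activator of chitin synthesis in spores, had 1.12, 1.08, 0.00 and 0.43. All deposited hrr25is values here average the own condition B library with the shared one. They therefore do not give an hrr25is response by themselves. DIN7, SHC1, IDP2 and ZPS1 were not among the 28 features called alike. Without the shared library the numbers were 189 (3.42%; 50 higher, 0.906%, and 139 lower, 2.52%) and 55 (0.996%; 20 higher, 0.362%, and 35 lower, 0.634%). With a test in place of size, the mean of the sensitized responses minus the mean of the WT responses was called for 31 features (0.562%), 14 higher (0.254%) and 17 lower (0.308%), and 20 of the 28 features called alike were among them. With either condition B library of the WT CMK table left out this count was 164 and 58, with either condition A library of the WT 3MBPP1 table left out 12 and 9, and with the shared library kept in hrr25is 1.

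The difference between the strains passed for 0 of 5516 features (0%; limma, lowest adjusted p = 0.282), with 287 (5.2%) at a p under 0.05 before adjustment, 129 lower and 158 higher in hrr25is. The count was 0 in all 20 other fits of limma, and a z test on the authors' deposited fold changes and p-values passed 4 features, SNR66, ILV3, GAD1 and GPH1, at an adjusted p of 0.0370. In simulated data the limma test of the difference called 16.4% of planted differences of 1 and 73.1% of those of 2 on the log2 scale, with 5 false calls. The simulation gave each feature the same mean level in every table, so hrr25as was simulated deeper than it was sequenced. These shares may therefore be too high for the real data. The lack of calls thus does not show that the responses were equal. Since no difference passed in limma, the values that follow are a description of genes with the lowest p for the difference, chosen after their values were seen. RSB1, which exports sphingoid bases across the plasma membrane and is a target of the drug resistance activators Pdr1 and Pdr3, had 20.2 and 25.7 against 279.5 and 362 reads in hrr25as, and 135 and 74.1 against 131 and, in the shared library, 438 in hrr25is. In WT with 3MBPP1 it had 133 and 145 against 405 and 459.9. It rose by 3.77 ± 0.44 (limma adjusted p = 0.000714) in hrr25as and by 1.63 ± 0.29 (adjusted p = 0.00808) in WT with 3MBPP1, and stood at 0.39 ± 0.43 in hrr25is, a difference of -3.39 ± 0.62 (adjusted p = 0.282). HSP12, a membrane-stabilising stress protein, had 248 and 325 against 1830.1 and 2733 reads in hrr25as, and 1619 and 1265 against 1924 and, in the shared library, 1908 in hrr25is. It rose by 2.93 ± 0.39 (limma adjusted p = 0.00116) in hrr25as and by 2.29 ± 0.39 (adjusted p = 0.0075) in WT with 3MBPP1, and stood at 0.43 ± 0.44 in hrr25is. XBP1, a stress-induced repressor, had 37.5 and 31.7 against 145 and 116 reads in hrr25as and 302 and 289 against 277 in hrr25is, a difference of -1.98 ± 0.37 (limma adjusted p = 0.282). TDH1, a glyceraldehyde-3-phosphate dehydrogenase gene, had 385 and 307 against 1117 and 1435 reads in hrr25as and 4138 and 5164 against 3015 in hrr25is.

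**Figure D3:**
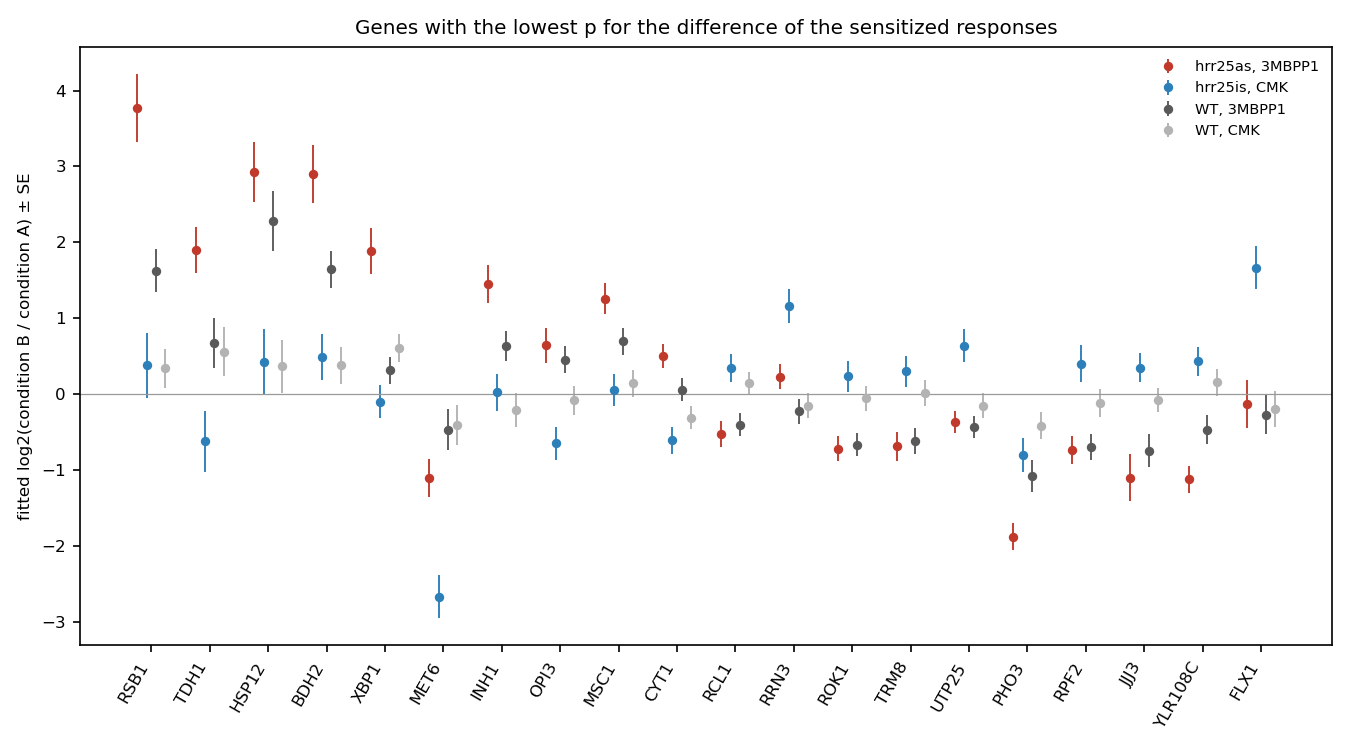
Fitted log2(condition B / condition A) with its SE for the genes with the lowest p for the difference between the sensitized responses, in hrr25as, hrr25is without the shared library and the WT tables. RSB1 stands at 3.77 in hrr25as and 0.39 in hrr25is, and YLR108C at -1.12 and 0.44; 0 of the differences passed the adjusted threshold.

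In the other direction, YLR108C had the lowest p of all before adjustment (limma): it had 399.8 and 402 against 183 and 187 reads in hrr25as, and 384 and 463 against 572 and, in the shared library, 332 in hrr25is. It changed by -1.12 ± 0.18 and 0.44 ± 0.19, a difference of 1.55 ± 0.26 (limma adjusted p = 0.282). Ribosome assembly factors were frequent among the lowest values. RPF2, which brings 5S RNA into the large subunit, had 458 and 488 against 264 and 304 reads in hrr25as and 3680.0 and 3411 against 4691 in hrr25is, a difference of 1.14. UTP25, a small-subunit processome factor, had 805 and 763 against 568 and 653 reads, and 3194 and 2921 against 4763, a difference of 1.00. ROK1 and RCL1, also of small-subunit assembly, differed by 0.95 and 0.87, and RRN3, the RNA polymerase I initiation factor, by 0.93.

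Among the lists of ribosome production, assembly factors and polymerase subunits had differences of 1 sign, while ribosomal protein and snoRNA genes did not. All 90 ribosome biogenesis factors had a positive difference without the shared library, with medians of -0.55 in hrr25as and 0.13 in hrr25is; 21 were called lower in hrr25as and 0 in hrr25is (limma). Before adjustment, at a p under 0.05, 64 were lower in hrr25as and 0 in hrr25is, where all features gave 758 and 417. At that level the difference passed for 37, all positive, against 158 positive of 5516 features. NOP1, the fibrillarin of box C/D snoRNPs, changed by -1.48 ± 0.32 (limma adjusted p = 0.0145) in hrr25as. All 15 late 40S maturation factors, the step in which Hrr25 is known to act, had a positive difference, with medians of -0.42 and 0.24, 4 were called lower in hrr25as and the difference of 10 had a p under 0.05 before adjustment (limma); TSR1, one of these factors, changed by -0.70 ± 0.16 (limma adjusted p = 0.015) with a difference of 0.86 ± 0.28. So had all 19 RNA polymerase I and III subunits, with medians of -0.56 and 0.11 and 3 differences at that level. The WT medians of these 3 lists were -0.55, -0.39 and -0.38 with 3MBPP1 and -0.11, -0.07 and -0.17 with CMK, so WT with 3MBPP1 lay near hrr25as. Over all members the median difference was -0.02.

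Stress, storage carbohydrate and drug resistance genes had differences of the opposite sign. All 28 general stress genes had a negative difference, with medians of 1.14 in hrr25as, 0.16 in hrr25is, 0.65 in WT with 3MBPP1 and 0.14 in WT with CMK; 10 were called higher in hrr25as, 0 in hrr25is (2 at a p under 0.05 before adjustment) and 6 in WT with 3MBPP1 (limma). The difference had a p under 0.05 before adjustment for 7 stress, 7 glycogen and trehalose and 8 drug resistance genes, all negative, against 129 negative of 5516 features. Of 20 glycogen and trehalose genes, 19 had a negative difference, with medians of 0.81, 0.04, 0.42 and 0.02 in that order, and 7 were called higher in hrr25as. GPH1, glycogen phosphorylase, had 1159 and 1007 against 4321 and 4052 reads in hrr25as and 2832 and 3189.7 against 3498 and, in the shared library, 1552 in hrr25is, and rose by 1.96 ± 0.33 (limma adjusted p = 0.00319) in hrr25as. GAC1, a subunit that directs the phosphatase Glc7 to glycogen synthase, had 43.3 and 34.3 against 201 and 314 reads in hrr25as and 355 and 405 against 391 in hrr25is. Of 20 pleiotropic drug resistance genes, 19 had a negative difference, with medians of 1.11, 0.15, 0.93 and 0.07, and 10 were called higher in hrr25as and 7 in WT with 3MBPP1. PDR5, the multidrug exporter, had 29216 and 18164 against 92575 and 44645 reads in hrr25as and 55359.9 and 51109 against 49104 in hrr25is, and rose by 1.48 ± 0.36 (limma adjusted p = 0.0244) in hrr25as. The Pdr1 and Pdr3 element TCCGCGGA was in 25 of the 5345 windows (0.468%), and in 1.74% of those of genes called higher in hrr25as.

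Respiration and citric acid cycle genes, 46 in all, had medians of 0.29 in hrr25as and -0.36 in hrr25is, and 1 was called higher and 1 lower in hrr25as. Of their 41 negative differences, 15 had a p under 0.05 before adjustment (limma), against 129 negative of 5516 features. Mitochondrial chaperone genes had medians of -0.82 and -0.41, with 5 of 8 called lower in hrr25as; HSP60, the matrix chaperonin, changed by -1.59 ± 0.26 (limma adjusted p = 0.0028) and SSC1, the matrix Hsp70, by -1.54 ± 0.23 (adjusted p = 0.0016) there. Cytosolic chaperones (17 genes, 3 called lower in hrr25as) had medians of -0.40 and -0.21. G1/S genes (30, of which 3 were called higher in hrr25as) had medians of 0.33 and 0.15, and PCL1, a G1 cyclin, rose by 1.72 ± 0.26 (limma adjusted p = 0.002) in hrr25as. Histone genes (10, with 1 called lower in hrr25as) had medians of -0.48 and -0.73. Of 34 proteasome, 22 ergosterol and 7 casein kinase genes, 0 were called in either strain (limma). At a p under 0.05 before adjustment, 1, 1 and 1 were in hrr25as and 1, 5 and 0 in hrr25is. All features gave 432 higher and 758 lower in hrr25as and 280 higher and 417 lower in hrr25is at that level. The median responses were 0.13 and 0.28 for proteasome and -0.07 and -0.52 for ergosterol genes. Scaling by total reads in place of size factors shifts the median of all features by 0.31 in hrr25as and 0.41 in hrr25is, and by 0.09 in their difference, so list values are to be read against these shifts. Under that scaling the hrr25is medians of glucose-repressed, respiration (to 0.06), mitochondrial chaperone (to 0.00) and cytosolic chaperone genes, the hrr25as medians of hexose transporter, ergosterol and casein kinase genes, and the median differences of methionine (to 0.04) and purine genes (to 0.00) change sign.

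As deposited, 6 members (0.109%) moved by at least 1 in opposite directions in the 2 strains: MIG3, LEU1, HXT1, DAN1, OAC1 and TIR4. Without the shared library 1 of them, TIR4, still did (0.0181%). HXT1, a low-affinity glucose transporter made at high glucose (chromosome VIII, 290913 to 292625), had 313 and 103 against 9.57 and 3.78 reads in hrr25as. In hrr25is it had 169.7 and 86.4 in condition A, 24.6 in its own condition B library and 2139.7 in the shared one. In the WT CMK table, which holds the same library, it had 2234 and 1787 against 2441 and 2139.7. Its deposited responses were -4.96 in hrr25as and 3.08 in hrr25is, and the latter was -2.38 without the shared library. LEU1, the isopropylmalate isomerase of leucine synthesis, had 1814 and 1457 against 763 and 731 reads in hrr25as, and 2975 and 3085 against 1376 and, in the shared library, 22706 in hrr25is, where WT CMK libraries had 14090.4 to 22810.5. Its deposited hrr25is response of 1.99 was -1.14 without the shared library, against -1.13 in hrr25as. The deposited responses of MIG3, a repressor related to Mig1, were -1.53 and 1.11, and the latter was -0.40 without the shared library. For OAC1, a mitochondrial oxaloacetate carrier, they were -1.04 and 1.32, with -0.34 without it, and for DAN1, a cell wall protein of anaerobic cells, -2.41 and 1.13, with 0.01 without it. TIR4, a cell wall mannoprotein, had 251 and 10.3 against 90.3 and 34.0 reads in hrr25as, so its conditions overlapped there. In hrr25is it had 38.3 and 28.4 against 84.9 and, in the shared library, 104. HXT3, another low-affinity glucose transporter, had 5442 and 4114 against 658 and 384 reads in hrr25as and 25131 and 22815 against 11141 and, in the shared library, 28244 in hrr25is, and fell by 3.27 ± 0.39 on the log2 scale (limma adjusted p = 0.000714) in hrr25as. Of 13 hexose transporter and glucose sensing genes, 1 was called higher (HXT7, a high-affinity transporter, 2.52 ± 0.42, limma adjusted p = 0.0032) and 2 lower in hrr25as, and 0 in hrr25is (limma; 2 higher and 2 lower at a p under 0.05 before adjustment).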

How the data were processed

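RNA-seq libraries of WT, hrr25as and hrr25is cells were grouped by sample titles. Tools named in the submitters' processing notes are HTSeq 0.6.0, STAR 2.3.0 and CASAVA 1.8.2, with build sacCer3. The authors averaged normalised counts into a mean signal per table and condition, per the file headers. The fold change is a deposited ratio of condition B to condition A. The deposited log2 values are its logarithm, and the p-values are deposited ones from the authors' comparison of conditions, per the file headers. The tables hold no column of counts, which the plan had assumed for a quasi-likelihood test. Each condition mean gave exactly 1 pair of whole reads (100% of means), so reads per library were recovered and fitted with limma 3.58.1 (R 4.3.3) voom on 8 group means, with 7 residual degrees of freedom. The shared library has the same size factor (1.73) in both CMK tables, which therefore appear to have been normalised together. Levels in the other tables are to be compared within a table. The shared library was counted once, in WT CMK, so 1 hrr25is condition B library is assumed to vary like the other groups. Recovered libraries carry no replicate number and are named here by smaller or larger size factor. Symbols matched 5427 members in R64. Genes were named when called alike, when among those with the lowest p for the difference or when they were list examples; the members, lists and named genes were chosen with earlier results of these data known. Scripts were checked on simulated data. Alternatives were total reads, other minimums, fewer tables, limma trend (pseudocount of 1) and leaving out each library. Depth limits features with few reads. Python 3.11.15, pandas 2.3.3 and matplotlib 3.10.9 were used.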

Additional observations from a re-analysis of the deposited data

Results flagged for a closer look

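The mean response of the sensitized strains minus the mean of the WT responses passed the limma test of that difference (adjusted p under 0.05 over 5516 features) for 31 features, and each is given here for that reason. Higher in the sensitized strains were YJL047C-A (3.23), REC104 (3.00), YDR042C (2.75), SNR71 (2.53), tP(AGG)C (2.37), SNR13 (2.19), YHR069C-A (2.18), YNL277W-A (2.05), tR(UCU)K (1.83), SNR38 (1.75), YHR033W (1.60), TAD2 (1.19), ADR1 (1.13) and USE1 (1.01), all on the log2 scale. Lower were HXT1 (-3.08), ADE17 (-2.87), PHO5 (-1.96), SHM2 (-1.75), ASC1 (-1.65), SFG1 (-1.57), MET6 (-1.45), YNL058C (-1.45), WSC4 (-1.42), PHM6 (-1.36), ILV3 (-1.22), ILV5 (-1.14), DFR1 (-1.09), GAS3 (-1.08), SUR7 (-1.02), CAR2 (-0.99) and MRPL17 (-0.94). In all 14 fits that left out 1 library, 7 of the 31 were called: SNR13, PHO5, YDR042C, YHR033W, YJL047C-A, ASC1 and ADE17. Each of those fits kept hrr25is's own condition B library. With the shared library kept in hrr25is, PHO5 was called. ASC1 was also called lower in WT with 3MBPP1, as its values above show. The small RNA genes SNR13, SNR38, SNR71, tP(AGG)C and tR(UCU)K stand beside snRNA and snoRNA read shares of 31.4% to 38.2% in the WT 3MBPP1 libraries and 5.14% to 6.39% in hrr25as, and the part of that share in these differences was not tested.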

How the results depend on the processing

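No paired analysis was possible because the columns carry no replicate numbers. With the shared library kept in hrr25is, 0 features were called higher and 1 lower in both strains, the sensitized responses minus the WT responses gave 0 higher and 1 lower, and the hrr25is value of YNL277W-A reversed to -0.35. Total reads in place of size factors gave 28 higher and 11 lower alike, 18 of the 28 calls shared, and 6 lower against WT. Fitting the hrr25as and hrr25is tables alone gave 18 higher alike, limma trend gave 7, and the authors' deposited values gave 4 differences, 0 higher and 1 lower alike, and 0 higher and 2 lower against WT. Pearson's r was 0.657 and rho 0.550 without the shared library, and r was 0.474 with no minimum mean. By size, 189 members moved alike and 55 of them stayed small in WT without the shared library, an alternative added after the data were seen. Leaving out 1 library at a time gave 4 to 37 higher and 4 to 101 lower alike, 5 to 62 higher and 4 to 102 lower against WT, and 0 to 0 differences. The highest alike counts came without a condition B library of WT CMK (37 and 101 alike without the smaller, 37 and 96 without the larger) and the lowest without a condition A library of hrr25is (4 and 8, 4 and 4); the lowest against WT came without the larger condition A library of WT 3MBPP1 (5 and 4). Of the others, without a WT 3MBPP1 library the lower alike count was 10 or 11, without a condition A library of hrr25as the higher count was 7, and without its larger condition B library 17. Against WT the 31 calls became 9 to 19 without any 1 library other than a condition B library of WT CMK (164 and 58) or the larger condition B library of hrr25as (36). The omissions for r and rho were others, made on the deposited responses with the shared library kept (r of 0.530). Leaving out 1 other library of the hrr25as and hrr25is tables gave r of 0.115 to 0.514 and rho of 0.131 to 0.435. Both were lowest without hrr25is's own condition B library, which leaves the shared library alone there. For that omission no test value exists. Features with few reads in hrr25as, the shallowest table, are the least certain.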
